A study of Mus musculus with 4 samples.

Results

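The 7 genes described here are Th, Ddc, Gch1, Slc18a2, Slc6a3, Nr4a2 and Bcl6, taken by their symbols from the 43348 genes of single-cell RNA-seq count tables of Nkx2.1-lineage cells, with the question whether interneurons carrying Th mRNA also carried the rest of the catecholamine pathway. The cells came from acute slices of frontal cortex (nCX) and hippocampus (HPC) of juvenile mice at postnatal day 18 to 20. All mice carried Nkx2.1-Cre and the Ai14 TdTomato reporter, which marks descendants of Nkx2.1-expressing progenitors such as those of the medial ganglionic eminence (MGE), and WT mice (GRIN1-WT) were compared with littermates whose floxed Grin1 was deleted in the same lineage (GRIN1-KO, here Grin1-null). Dissociation used papain in solutions with TTX, APV and actinomycin D in every group, TdTomato-positive cells were sorted, and each droplet library held cells of mice that the labels do not tell apart. There were 3 WT and 2 Grin1-null libraries per region, 10 in all, told apart by the suffix of the cell barcode.

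Tyrosine hydroxylase, the product of Th, converts tyrosine to L-DOPA and is the rate-limiting enzyme of catecholamine synthesis. It needs tetrahydrobiopterin (BH4), whose synthesis starts with GTP cyclohydrolase 1 (Gch1), and DOPA decarboxylase (Ddc) turns L-DOPA into dopamine. The vesicular monoamine transporter VMAT2 (Slc18a2) loads dopamine into vesicles and the dopamine transporter DAT (Slc6a3) takes it back up. Nr4a2 (Nurr1) is a nuclear receptor that drives the dopaminergic programme in midbrain neurons, and Bcl6 is a transcriptional repressor. Cortical interneurons with Th mRNA are a known GABAergic type.

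The 7 members had 9 promoter entries in the RefSeq annotation of GRCm38.p6, since Ddc and Bcl6 each had another start. A searched motif lay in the 250 bases before the start in Th and in 1 of the entries of Ddc, and these promoters are printed 5′ to 3′ with the motif in capitals to show where the letters lie. Motifs searched on both strands were the cyclic AMP response element (CRE, TGACGTCA, its own reverse complement) and the Nr4a monomer element (NBRE, AAAGGTCA).
Th, chr7:142899996-142900245, minus strand: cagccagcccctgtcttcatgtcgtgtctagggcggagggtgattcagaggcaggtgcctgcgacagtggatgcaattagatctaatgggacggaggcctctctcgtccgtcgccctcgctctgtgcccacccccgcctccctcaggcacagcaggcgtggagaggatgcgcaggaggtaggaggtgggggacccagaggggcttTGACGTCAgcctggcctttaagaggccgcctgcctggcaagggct
Ddc, chr11:11898145-11898394, minus strand: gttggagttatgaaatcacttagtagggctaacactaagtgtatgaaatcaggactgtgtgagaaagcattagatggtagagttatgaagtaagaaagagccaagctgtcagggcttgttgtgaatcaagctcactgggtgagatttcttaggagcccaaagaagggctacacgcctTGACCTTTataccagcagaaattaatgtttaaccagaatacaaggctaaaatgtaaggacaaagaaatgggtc
In Th, the CRE begins 45 bases before the start. The Ddc match is an NBRE read from the opposite strand, 73 bases before the start. The other Ddc entry (chr11:11890409-11890658) and the promoters of Gch1, Slc18a2, Slc6a3, Nr4a2 and Bcl6 held neither motif in this window. Among 32817 RefSeq promoters of the same length, 508 (1.55%) held the CRE and 439 (1.34%) the NBRE. A match shows letters in a window and no binding.

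Of 26987 cells, 26201 passed the cell filter and fell into 34 clusters. Total UMIs per library ran from 1488601 to 47338167 and median UMIs per cell from 1479 to 9508. WT HPC replicate 2 stood apart with the lowest depth, 3 TH-like cells and 2 Th-positive interneurons, and Grin1-null nCX replicate 1 held 177 cells. Cell barcodes shared between libraries numbered 95 over all pairs and at most 12 in a pair. Scrublet marked 314 cells as doublets, which stayed in. Grin1, the floxed gene, ran from 116 to 238 CPM (UMIs of the gene scaled to a common library total of UMIs) in WT interneuron sums and from 18.8 to 37 CPM in Grin1-null ones, without overlap.

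Classes were named from markers, and the suffix "-like" is meant throughout. The 9608 interneurons were 3853 SST, 2128 PVALB, 2195 NGFC (neurogliaform) and 1432 TH cells, and 10006 cells were oligodendrocytes. Th, Ddc, Nr4a2 and Bcl6 were kept out of the genes used for clustering, but Th and Bcl6 were among the 5 markers that named the TH class (Rasgrp1 and Crh were others), so their levels there are a description. Cluster 11 also reached 5 PVALB markers and was named for the TH markers, which stood highest above the mean of clusters. The TH class joined cluster 11, with Th at 230 CPM, and cluster 12, with Th at 59.6 CPM, Crh at 450 CPM and Sst at 11070 CPM, of 716 cells each. In cluster 11, Gad1 stood at 1147 CPM, Gad2 at 1313 CPM and Lhx6 at 77.5 CPM, and the glutamatergic marker Slc17a7 at 1.25 CPM.

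Th was detected in 742 cells with 2421 UMIs, and 595 of these cells (80.2%) were TH cells. In the TH class 41.6% of cells had a Th UMI, at 142 CPM (95% Poisson interval 136 to 148). PVALB cells followed at 7.36 CPM (6.21 to 8.65) and SST cells at 1.06 CPM (0.766 to 1.43). NGFC cells stood at 0.289 CPM (0.0940 to 0.675) and oligodendrocytes at 0.110 CPM (0.0403 to 0.239), and these last 2 intervals overlapped. Within PVALB cells, cluster 31, led by Crabp1 and Kit, had 42 Th UMIs in 6 of its 113 cells, up to 25 UMIs in a single cell. Oligodendrocytes had a Th UMI in 0.06% of cells at a median of 5063.5 UMIs, which is the background against which the 6.98% of interneurons (671 of 9608, median 8773.5 UMIs) can be read. Intervals on pooled UMIs or cells cover counting error only, and UMIs of free RNA are among the counts.

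**Figure D1:**
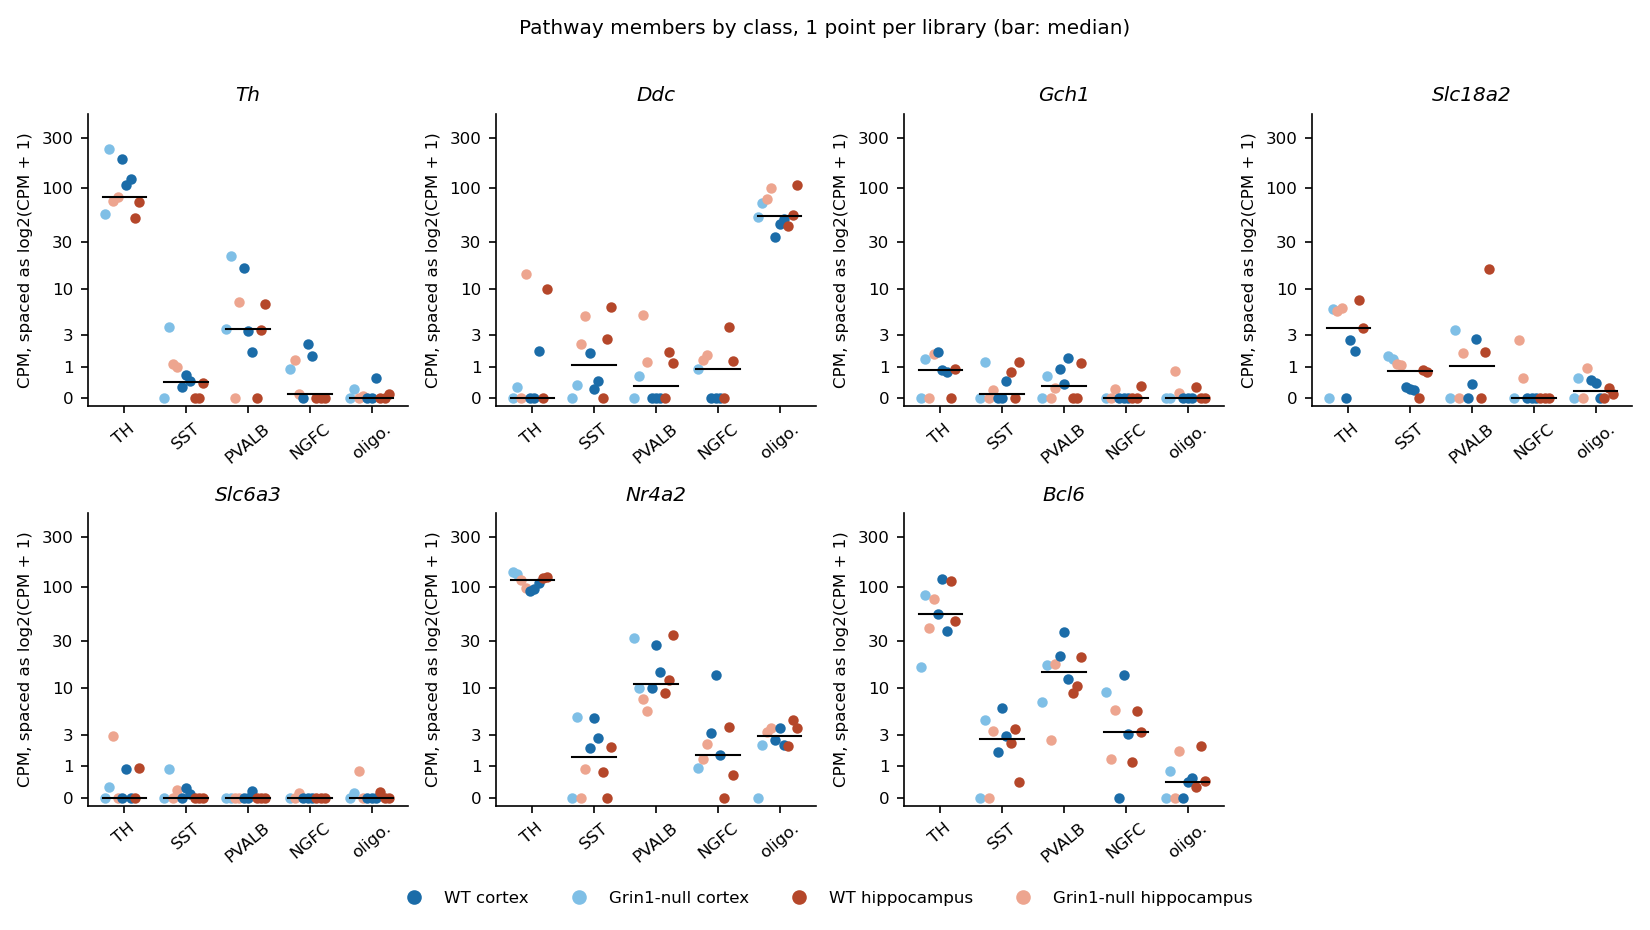
Level of each member (CPM, axis spaced as log2 of CPM plus 1) in TH, SST, PVALB and NGFC interneurons and oligodendrocytes, 1 point per library with at least 10 cells of the class and a bar at the median. Th, Nr4a2 and Bcl6 were highest in TH cells, Ddc in oligodendrocytes, and Gch1, Slc18a2 and Slc6a3 lay near 0 in most libraries.

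The enzyme that follows tyrosine hydroxylase was detected in few of the Th cells. Ddc, the decarboxylase, had a UMI in 10 of 671 Th-positive interneurons, 1.49% (95% Wilson interval 0.812 to 2.72; median 10283 UMIs per cell), and in 101 of 8937 Th-negative ones, 1.13% (0.931 to 1.37; median 8646 UMIs). Pooled levels were 1.91 CPM (1.05 to 3.21) and 1.88 CPM (1.60 to 2.19). In Th-positive cells the share ranged over libraries from 0% to 5.26%. On UMIs summed per library and Th status, with the library as a block, edgeR gave a log2 change of 0.67 (SE 0.51, adjusted p = 0.394, 8 libraries), with a 95% interval from -0.32 to 1.66. Astrocytes had a Ddc UMI in 1 of 431 cells (0.232%, median 2535 UMIs).

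Ddc was instead found in other cell types. Oligodendrocytes carried 4234 of its 4500 UMIs, at 77.4 CPM and in 21.5% of cells, and 2154 of the 2340 cells with a Ddc UMI were oligodendrocytes. Oligodendrocyte cluster 15 reached 413 CPM and cluster 13 reached 116 CPM. Per library the oligodendrocyte level ran from 33.2 to 108 CPM, so that every library exceeded the level of its own TH cells. In 95 endothelial cells Ddc stood at 104 CPM (70.4 to 149) and Gch1 at 97.4 CPM (64.7 to 141).

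Part of the Ddc signal in interneurons lay in cells that also held many oligodendrocyte transcripts. Of 210 interneurons in which 6 oligodendrocyte markers, Olig1, Olig2, Mbp, Mog and Mag among them, together reached 10000 CPM, 34 (16.2%) had a Ddc UMI, against 0.819% of the rest. Among the 10 cells with both Th and Ddc, 3 were above that level and were marked by Scrublet, and the 6 markers summed to a pooled 21780 CPM (median of cells 299 CPM). The 661 Th-positive cells without Ddc had a pooled 666 CPM (median 126 CPM), with 8 above that level. The part of these transcripts in the result was not tested.

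The 77 interneurons that had Ddc but few oligodendrocyte transcripts were mostly hippocampal and mostly without Th. HPC libraries held 63 of 3986 such cells, 1.58% (1.24 to 2.02), and nCX libraries 14 of 5412, 0.259% (0.154 to 0.434). Grin1-null HPC replicate 2 held 44 and WT HPC replicate 3 held 14, while WT HPC replicate 1 held 0 of 500 and WT HPC replicate 2 held 3 of 903, so most came from 2 libraries. WT nCX replicate 1 held 3 of 793, so that the regional order was the opposite in the WT replicate 1 pair. Of the 77 cells, 33 lay in SST cluster 2 and 17 in TH cluster 12, and 2 or more Ddc UMIs were seen in 23 cells, of which 1 had Th. The TH cells of Grin1-null HPC replicate 2 held 34 Ddc UMIs in 13 of 157 cells, with up to 11 in a cell, and none of the 13 was rich in oligodendrocyte transcripts. In edgeR without a filter, the WT HPC-minus-nCX difference of Ddc in interneurons was 2.16 (SE 0.78, adjusted p = 0.307), which did not pass.

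**Figure D2:**
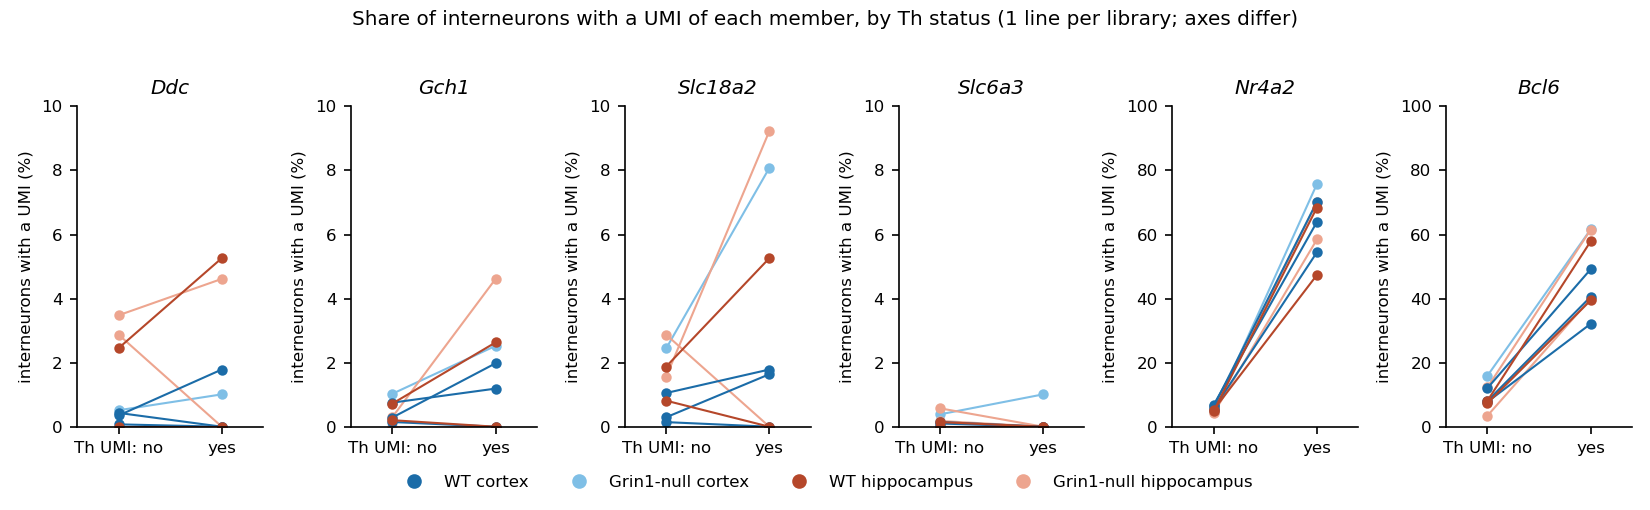
Share of interneurons with a UMI of each member (%), in cells without and with a Th UMI, 1 line per library with at least 10 Th-positive cells (8 libraries); the y axes differ between members. Nr4a2 and Bcl6 were higher in Th-positive cells in all 8 libraries, Slc18a2 and Gch1 in 5, Ddc in 4 and Slc6a3 in 1.

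Gch1, which supplies the cofactor of tyrosine hydroxylase, was rare in the named interneurons, with 53 UMIs. A UMI was seen in 13 of 671 Th-positive cells, 1.94% (1.14 to 3.29), and in 38 of 8937 Th-negative cells, 0.425% (0.310 to 0.583), and oligodendrocytes had one in 0.05%. The levels were 1.91 CPM (1.05 to 3.21) and 0.458 CPM (0.326 to 0.626). Of the 13 cells, 12 lay in cluster 11 and none in cluster 12. The gene did not pass the filter on low counts, and without a filter edgeR gave 1.67 (SE 0.57, adjusted p = 0.0255), short of the threshold of 0.01. Over libraries the share was higher in Th-positive cells by 1.19 percentage points on average (SD 1.53, higher in 5 of 8 and lower in 2; exact sign-flip permutation test, two-sided p = 0.0625, adjusted over 6 members 0.125).

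Among Th-positive cells, most of those with Gch1 were the cells with the most Th. Among 177 interneurons with 5 to 25 Th UMIs, 10 had a Gch1 UMI, 5.65% (3.10 to 10.1), at 4.71 CPM, against 2 of 284 cells with 2 to 4 Th UMIs (0.704%) and 1 of 210 with 1 Th UMI (0.476%). Those 177 cells were also deeper, with a median of 13195 UMIs against 8980 and 8953. By library, the 10 cells came from Grin1-null nCX replicate 2 (4 of 92), Grin1-null HPC replicate 2 (3 of 19), WT nCX replicate 1 (2 of 29) and WT HPC replicate 3 (1 of 3), with 0 of 29 in WT nCX replicate 3. Ddc did not follow Th in this way, with 1 of the 177 cells (0.565%).

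**Figure D3:**
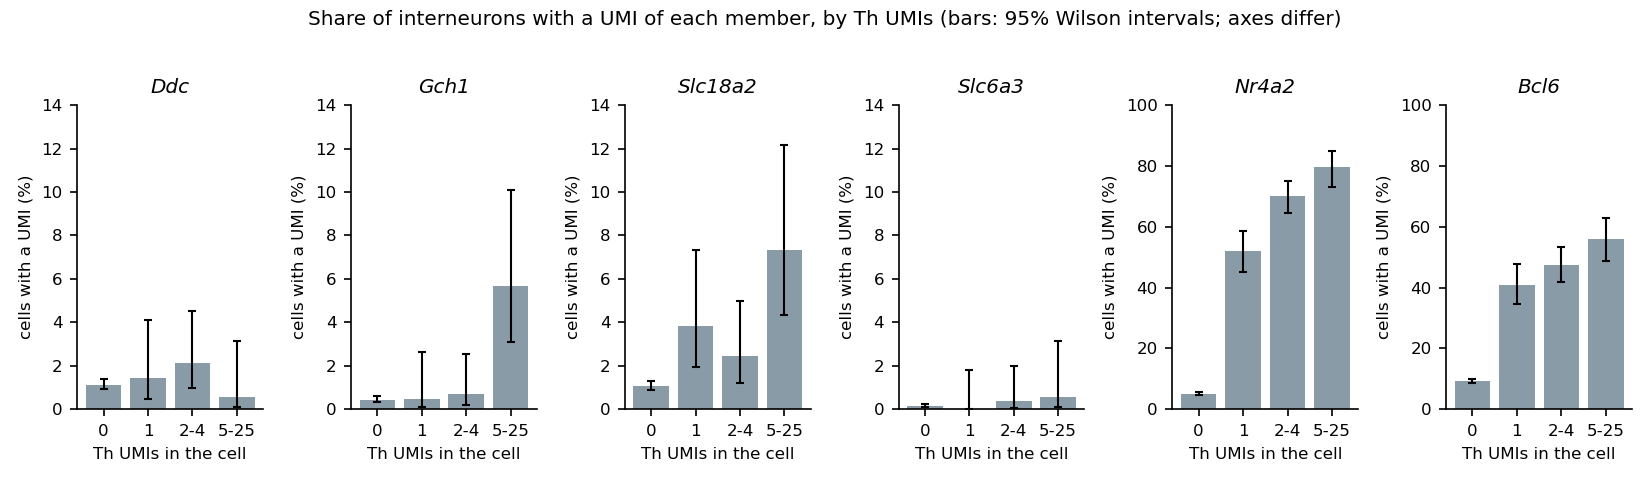
Share of interneurons with a UMI of each member (%) in cells with 0, 1, 2 to 4 and 5 to 25 Th UMIs (8937, 210, 284 and 177 cells); bars are 95% Wilson intervals and the y axes differ. Nr4a2 went from 5.0% to 79.7% and Bcl6 from 9.18% to 55.9%, while Ddc stayed between 0.565% and 2.11%.

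Slc18a2, the vesicular transporter, was present in few Th cells. It had a UMI in 28 Th-positive cells, 4.17% (2.90 to 5.97), and in 96 Th-negative cells, 1.07% (0.881 to 1.31), at 4.78 and 1.27 CPM. Oligodendrocytes had one in 0.250% of cells. In edgeR Slc18a2 rose by 1.68 (SE 0.40, adjusted p = 0.00259), but it was higher in only 5 of 8 libraries. In Th-positive sums it stood at 6.94 CPM in Grin1-null nCX replicate 2, at 8.49 in Grin1-null HPC replicate 2, and at 0 CPM in WT nCX replicate 1, WT HPC replicate 1 and Grin1-null HPC replicate 1. The call was lost with DESeq2 (adjusted p = 0.0165), with 2 Th UMIs as the limit (0.0132) and without Grin1-null HPC replicate 2 (1.31, adjusted p = 0.0317), and without Grin1-null nCX replicate 2 the gene did not pass the filter. Within cluster 11 the share was 5.52% in Th-positive and 5.69% in Th-negative cells, and within cluster 12 it was 1.25% and 1.08%. PVALB cluster 3 had it in 40 of 1613 cells.

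Slc6a3, the reuptake transporter, was close to undetected. There were 22 UMIs in all kept cells, 2 of them in Th-positive interneurons (0.298% of cells, 0.0818 to 1.08) and 13 in Th-negative ones (0.134% of cells, 0.0768 to 0.235). Oligodendrocytes, which should lack it, had one in 0.0300% of cells. A difference between Th-positive and Th-negative cells was not detectable at this depth.

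No cell held the whole set. Ddc and Gch1 met in 0 of 671 Th-positive interneurons, for which the Wilson interval reaches up to 0.569%. Any of Ddc, Gch1, Slc18a2 and Slc6a3 was seen in 50 Th-positive cells, 7.45% (5.70 to 9.69), and in 243 Th-negative cells, 2.72% (2.40 to 3.08). One cell, of SST cluster 2 in Grin1-null nCX replicate 2, had Ddc, Slc18a2 and Slc6a3 beside 2 Th and 7 Nr4a2 UMIs. Among its 4423 UMIs it had 0 of the oligodendrocyte markers and 0 of Sst, although Sst stood at 13330 CPM over cluster 2. This cell, without the marker of its class, was the only such cell of 9608 interneurons.

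Both transcription factors were seen in many of the Th cells. Nr4a2 had a UMI in 449 of 671 Th-positive interneurons, 66.9% (63.3 to 70.4), and in 447 of 8937 Th-negative ones, 5.0% (4.57 to 5.47). Per library, Th-positive sums ran from 150 to 202 CPM (median 177) and Th-negative sums from 4.18 to 18.0 CPM (median 10.4), without overlap. The edgeR log2 change was 4.16 (SE 0.17, adjusted p = 7.731e-15, higher in 8 of 8 libraries). Bcl6 was found in 320 Th-positive cells, 47.7% (43.9 to 51.5), and in 820 Th-negative cells, 9.18% (8.59 to 9.79). Its sums ran from 45.4 to 159 CPM (median 70.0) against 3.56 to 26.4 CPM (median 11.3), again without overlap, and it rose by 2.49 (SE 0.13, adjusted p = 4.134e-13). On cells thinned to 1000 UMIs before summing, Bcl6 changed by 1.72 with an adjusted p of 0.0507, which did not pass. Both were seen together in 230 Th-positive cells (34.3%) and 122 Th-negative cells (1.37%).

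Against all genes, 3 of the 4 members tested beside Th were called higher (Nr4a2, Bcl6 and Slc18a2), where 15.5% of 12406 genes were called and 6.79% were called higher. Th itself chose the cells and has no test. With each cell thinned to 1000 UMIs and Th status taken anew, 5 libraries kept 10 cells of each kind. There Nr4a2 was seen in 23.8% against 1.62% of cells (a difference of 22.1 points, SD 17.5) and Bcl6 in 8.61% against 1.73% (6.88 points, SD 8.50), both higher in 5 of 5 libraries. Grin1-null HPC replicate 2, with 13 Th-positive cells, decided much of this: without it the differences were 14.4 points for Nr4a2 and 3.15 points for Bcl6. The exact sign-flip p was 0.0625 for each, the smallest that 5 libraries allow, and 0.188 adjusted over 6 members. Ddc and Gch1 were seen in none of the thinned Th-positive cells, against 0.0498% and 0.0469%. Without thinning, over 8 libraries, the differences were 58.2 points (SD 9.50) for Nr4a2 and 38.4 points (SD 9.06) for Bcl6, each with the smallest possible p of 0.00781, 0.0234 after adjustment.

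Since 595 of the 671 Th-positive interneurons were TH cells, the comparison was repeated inside that class, where 7 libraries had enough cells. Nr4a2 ran from 150 to 238 CPM in Th-positive sums (median 195) and from 30.8 to 114 CPM in Th-negative sums (median 42.9), a log2 change of 2.1 (SE 0.17, adjusted p = 1.094e-09, higher in 7 of 7). Bcl6 ran from 44.8 to 159 CPM (median 95) against 32.9 to 115 CPM (median 67.8). The ranges overlapped, but the change of 0.48 (SE 0.10, adjusted p = 0.00158) was upward in 7 of 7 libraries. Without Grin1-null nCX replicate 2 the adjusted p of Bcl6 was 0.0125, which did not pass. Ddc changed by -0.99 (SE 0.66, adjusted p = 0.367), and Gch1, Slc18a2 and Slc6a3 did not pass the filter. Thus 2 of 3 members tested beside Th were called, where 9.98% of 9508 genes were called and 5.25% were called higher. In cluster 11 alone, Nr4a2 was still higher (0.94, SE 0.13, adjusted p = 1.752e-07), whereas Bcl6 did not pass (0.22, SE 0.16, adjusted p = 0.639). In SST cells only 2 libraries had enough Th-positive cells, and neither Ddc (2.09, SE 1.04, adjusted p = 0.816), Slc18a2 (2.85, SE 1.26, adjusted p = 0.752) nor Bcl6 (1.01, SE 1.09, adjusted p = 0.999) passed, where 0.248% of genes were called. PVALB and NGFC cells had too few for a test.

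Within the TH class, Nr4a2 and the stress peptide Crh (corticotropin-releasing hormone) marked different cells. Of Th-positive cells in cluster 11, 80.9% had Nr4a2 and 7.59% had Crh. Th-positive cells of cluster 12 had Nr4a2 in 48.1% and Crh in 33.1%, and its Th-negative cells had Nr4a2 in 7.01% and Crh in 66.2%. Both were seen in 53 of 1432 cells (3.70%). These shares describe clusters built on the same cells and have no test.

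**Figure D4:**
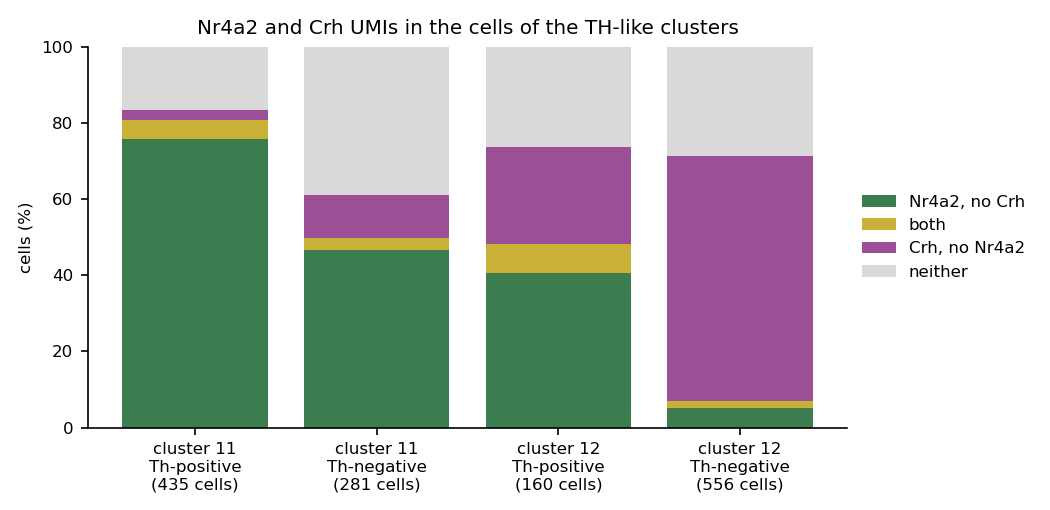
Cells of TH clusters 11 and 12 with Nr4a2 only, Crh only, both or neither (% of cells), split by a Th UMI; the number of cells stands under each bar. Nr4a2 cells made up most of Th-positive cluster 11 and Crh cells most of Th-negative cluster 12, and 3.70% of the cells held both.

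Of 35 further genes of catecholamine biology in 6 lists, 18 passed the filter, and 4 rose, 0 fell and 14 did not pass in Th-positive against Th-negative interneurons, beside 6.79% of all 12406 genes called higher and 8.73% called lower. Their median log2 change was -0.02, as was that of all genes tested (-0.02). In the BH4 list 3 of 7 rose. Gchfr, the feedback regulator of GTP cyclohydrolase 1, rose by 2.41 (SE 0.52, adjusted p = 0.00119) on 21 against 43 UMIs. Spr (sepiapterin reductase) rose by 0.51 (SE 0.14, adjusted p = 0.0068), a call lost with DESeq2 (0.0226) and in 6 of 8 fits without a library, and Pcbd1 (pterin-4a-carbinolamine dehydratase) by 0.46 (SE 0.11, adjusted p = 0.00205), lost in 2 of 8 and at -0.24 in thinned cells. Pts, Qdpr and Pcbd2 were among the 4 that did not pass. Slc29a4, the low-affinity monoamine transporter PMAT, was the 1 gene tested of 4 for release and uptake and rose by 1.01 (SE 0.20, adjusted p = 0.000481), from a median of 10.2 to 19.1 CPM.

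The breakdown enzymes Maoa (-0.06) and Aldh2 (-0.17) did not pass, nor did the precursor carrier subunits Slc7a5 (0.22) and Slc3a2 (-0.12). Dbh, which makes noradrenaline, had 0 UMIs in Th-positive interneurons, for which the limit of 3 counts is 0.410 CPM, and so did the noradrenaline transporter Slc6a2. Of the midbrain determinants, Pitx3, Lmx1a, Lmx1b, En1, En2, Foxa1, Foxa2 and Otx2 also had 0 UMIs there, and 0 of the 5 transcription factors tested (Nr4a1, Nr4a3, Pbx3 and Etv1 among them) passed. Inside the TH class, where 14 of the 35 genes were tested, 1 rose. Etv1, which with Meis2 and Pax6 acts in olfactory bulb dopaminergic cells, rose by 1.39 (SE 0.33, adjusted p = 0.00381, a call lost in 3 of 7 fits without a library) on 59 against 34 UMIs. Over all interneurons the Etv1 change had the opposite sign, -0.72 (SE 0.30, edgeR adjusted p = 0.0920), and did not pass.

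Beside Th, which chose the cells, the genes with the largest changes past the threshold were Tgm2, Rxfp2, Gm16685, Pth2r, Il7, Bche, Gpc4, 9130024F11Rik and Nr4a2 among those that rose. Of these Gpc4, a glypican, rose from a median of 2.77 to 53.5 CPM (4.24, SE 0.17, adjusted p = 6.217e-15) and Bche, butyrylcholinesterase, from 1.03 to 20.9 CPM (4.46, SE 0.35). The relaxin-family receptor Rxfp2 and the transglutaminase Tgm2 were higher in 5 of 8 libraries. Those that fell were Ovol2, C1qtnf7, Hpse, Chst7, Gm10710, Cxcr4, Nov, Pdyn, Gpr126 and Atp6ap1l, all with a median of 0 CPM in Th-positive cells, where a fitted change is no bound. Pdyn, the prodynorphin gene, had a median of 26.3 CPM in Th-negative cells. Across the 11 interneuron clusters, the genes whose log2 CPM was most like that of Th among 8558 genes were Fhl2 (r = 0.92), Neurl2 (0.92), St8sia4 (0.91), 1700019D03Rik (0.89) and Kcnip4 (0.87). Bcl6 ranked 24 (0.80) and Nr4a2 ranked 72 (0.72), over clusters that share libraries.

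By library, Th in the TH class stood at 188, 106 and 121 CPM in WT nCX and at 51.3 and 73.3 CPM in WT HPC. It stood at 55.5 and 238 CPM in Grin1-null nCX and at 75.2 and 81.9 CPM in Grin1-null HPC. WT nCX lay above WT HPC without overlap, whereas the Grin1-null nCX replicates lay on either side of the WT ones. HPC minus nCX in WT was -1.15 (SE 0.34, unadjusted p = 0.00624), and its edgeR adjusted p of 0.508 did not pass. WT HPC replicate 2 was left out with 3 TH cells. Nr4a2 ran from 92.1 to 139 CPM across these libraries, and its regional difference was 0.29 (SE 0.24, adjusted p = 0.997). Bcl6 varied more, from 16.7 to 119 CPM, with a difference of 0.19 (SE 0.50, adjusted p = 0.998).

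Over all interneurons the WT regional difference of Th was -2.03 (SE 0.68, adjusted p = 0.345). With the replicate number as a block it was -2.02 (SE 0.37, adjusted p = 0.00917), past the threshold. No member was called between regions in any interneuron class without the block, where 0.0156% of genes (all of them higher in HPC) were called in interneurons, 0.0104% in TH, 0.0341% in PVALB (all higher), 0.116% in SST (0.0179% lower) and 0% in NGFC cells. In the share of interneurons with a Th UMI, each cell thinned to 1000 UMIs, WT nCX replicates 1, 2 and 3 had 5.02%, 1.37% and 2.32% and WT HPC replicates 0.979%, 0.230% and 1.25%. The groups did not overlap and differed by -2.08 points (exact permutation test, two-sided p = 0.1, the smallest that 3 against 3 allow), or -1.79 points without WT HPC replicate 2 and -1.02 points without WT nCX replicate 1. With all UMIs the shares were 12.7%, 4.30% and 7.76% in WT nCX and 3.72%, 0.204% and 5.20% in WT HPC, which overlapped as groups (exact permutation test without pairing, p = 0.2). Taken in pairs by replicate number, the share was lower in WT HPC in each of the 3 pairs, with and without thinning.

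**Figure D5:**
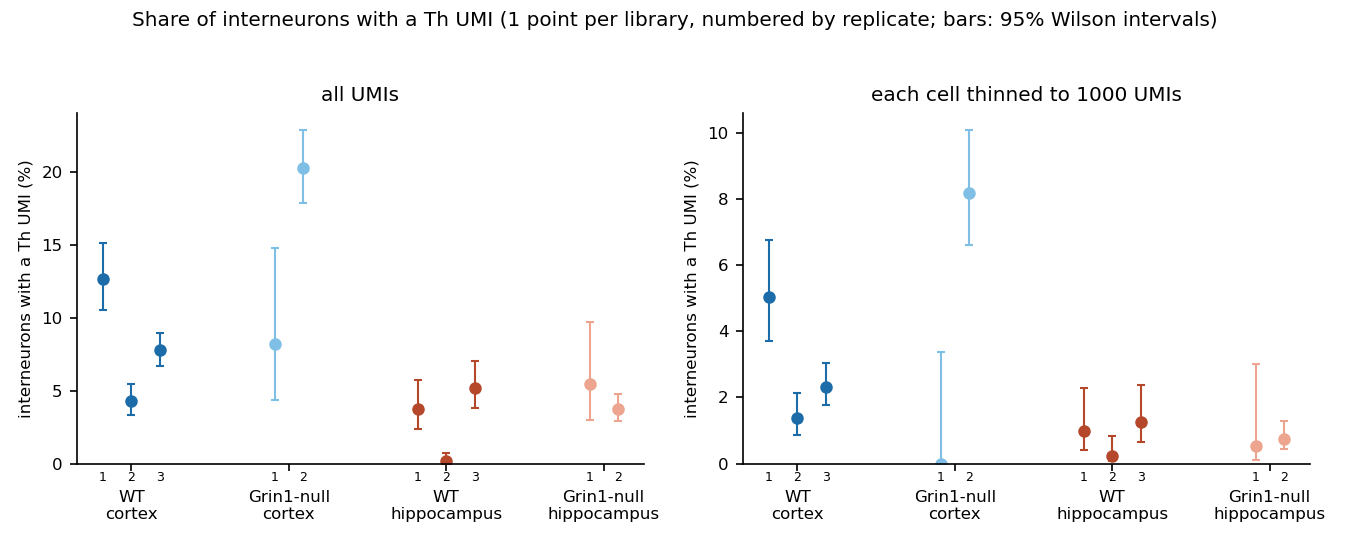
Share of interneurons with a Th UMI (%) per library, numbered by replicate, with all UMIs and with each cell thinned to 1000 UMIs; bars are 95% Wilson intervals. Thinned shares in WT cortex lay between 1.37% and 5.02% and in WT hippocampus between 0.230% and 1.25%, and Grin1-null cortex replicate 2 reached 8.18%.

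No member was called between Grin1-null and WT cells in TH, SST, PVALB or NGFC cells, in interneurons as a whole or in oligodendrocytes, where 0.00998% of genes were called in TH cells of nCX, 0.0103% in PVALB cells of nCX and 0% elsewhere. For NGFC cells of nCX the Grin1-null group was 1 library, which the fit assumes to vary like the other groups. In TH cells the null-minus-WT change of Th was 0.25 (SE 0.40, 95% interval -0.53 to 1.04) in nCX and 0.35 (SE 0.48, -0.60 to 1.30) in HPC. That of Nr4a2 was 0.44 (SE 0.25, -0.05 to 0.94) in nCX and -0.18 (SE 0.28, -0.73 to 0.37) in HPC. By library, Nr4a2 stood at 135.0 and 138.7 CPM in Grin1-null nCX, above WT nCX at 92.14, 96.18 and 110.0 CPM. In Grin1-null HPC it stood at 97.35 and 118.6 CPM, below WT HPC at 121.6 and 124.6 CPM. The order of the genotypes was thus opposite between the regions, and both same-numbered nCX pairs were higher in the Grin1-null library. With so few libraries per group, and the share of all genes separated in this way not counted, the order is a description. Grin1-null nCX replicate 1 held 16 TH cells, and the HPC change was 0.0037 without Grin1-null HPC replicate 2. Bcl6 changed by -0.08 (SE 0.52) and -0.29 (SE 0.58). All adjusted p in TH cells were at least 0.9997. Among all genes of the TH class, edgeR called 1 in nCX and 0 in HPC, 403 and 278 had an unadjusted p under 0.05, and DESeq2 called 4 and 1. The genotype-by-region difference was 0.09 (SE 0.63) for Th and -0.62 (SE 0.38) for Nr4a2 and was called for no member.

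Single libraries decided the genotype values in nCX. The thinned share with Th was 0% of 110 cells in Grin1-null nCX replicate 1, which allows up to 3.37% by the Wilson interval, and 8.18% (6.60 to 10.1) in replicate 2. With all UMIs these shares were 8.18% (9 of 110 cells) and 20.3%, 5.99 points above WT (exact permutation p = 0.4). The thinned difference from WT was 1.19 points (exact permutation p = 0.8) and -2.90 points without replicate 2, and the Th change in TH cells went from 0.25 to -1.34 without it. In HPC the Grin1-null shares were 0.544% and 0.753%, a difference of -0.17 points (exact permutation p = 0.8). Cluster 11 made up 5.46% and 17.3% of interneurons in Grin1-null nCX, 11.4%, 5.78% and 8.04% in WT nCX, 10.3% and 4.50% in Grin1-null HPC, and 8.02%, 0.305% and 7.25% in WT HPC.

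The remaining members showed no called difference in genotype. Slc18a2 in nCX interneurons stood at 0.861 and 2.99 CPM in Grin1-null libraries and at 0.151, 0.579 and 1.23 CPM in WT replicates 1, 2 and 3, with a change of 1.66 (SE 0.74, adjusted p = 0.9999). The groups overlapped through WT replicate 3, and in both same-numbered pairs Slc18a2 was higher in the Grin1-null library. With the replicate number as a block the change was 2.52 (SE 0.66, adjusted p = 0.885), which did not pass. Ddc in oligodendrocytes changed by 0.58 (SE 0.41) in nCX and 0.43 (SE 0.38) in HPC between genotypes. Between regions in WT it changed by 0.65 (SE 0.36), and none of these was past the threshold. In nCX the Grin1-null libraries, at 52.2 and 72.2 CPM, lay above the WT ones, at 33.2, 45.2 and 49.8 CPM. In HPC the genotypes overlapped, at 78.5 and 100.2 CPM against 42.5, 54.8 and 107.6 CPM. Gch1 and Slc6a3 passed the filter in no class of this comparison.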

How the data were processed

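Single-cell 3′ RNA-seq (10x Genomics, version 2 kit for replicate 1 and version 3 for the others) of TdTomato-sorted cells gave 4 matrices of unscaled UMI counts, 1 per region and genotype. The authors made these counts with Cell Ranger before they were deposited, on mm10 gene models lengthened by 4 kb at the end, so that UMIs in those 4 kb count for a gene. The release is 2.1.1 in the submitters' processing notes but 3.0.2 in the headers of the matrices. Libraries were split by barcode suffix and matched to replicates by the cell numbers of the methods.

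The members and lists were chosen with earlier results of these data known. A cell was used when it had 200 to 6000 genes and a mitochondrial share of less than 30%. Seurat 5.3.0 in R 4.3.3 integrated the matrices by canonical correlation (25 dimensions, 1987 of 2000 variable features, with 13 pathway genes left out) and clustered at resolution 1. A cluster was named when at least 3 markers of a class each reached 20 CPM and exceeded the mean of clusters. The interneuron classes also needed at least 3 general interneuron markers. A cluster stayed unnamed when it was low in UMIs without a marker of its own class among its top 10 genes. It also stayed unnamed when those genes held more markers of another class. Sums of UMIs by library and class that held at least 10 cells were tested on all genes with edgeR 4.0.16 (TMM, filterByExpr, quasi-likelihood, Benjamini-Hochberg). A call needs an adjusted p under 0.01 and a log2 change of at least 0.144 (0.1 on the natural-log scale). Changes are Th-positive (at least 1 Th UMI) minus Th-negative, Grin1-null minus WT, or HPC minus nCX. Shares were compared by exact permutation over libraries. DESeq2 1.42.0, the replicate number as a block, leaving out each library and other filters, scalings, clusterings and depths were alternatives. The cluster led by Th alone and the tests in oligodendrocytes were added after the data were seen. Python 3.11.15 (numpy 2.4.6, scipy 1.17.1, pandas 2.3.3, scanpy 1.11.5 with Scrublet) did the rest.

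Named genes are the members, genes of the 35-gene lists past the threshold, the 10 largest changes in each direction and the 5 genes most like Th by Pearson correlation over clusters. The Ddc cells by oligodendrocyte transcripts, cells by number of Th UMIs, cluster 31 and the cell with Ddc, Slc18a2 and Slc6a3 were described after their values were seen. Same-numbered replicates deviated together (13 pairs, correlations of deviations 0.11 to 0.66), and the number was used to pair the libraries. The 24 other pairs ran from -0.61 to 0.09. Deviations within a group sum to 0, which partly fixes these values, so they are no independent comparison. Within replicate 1 the number also marks the kit. On simulated counts of these depths, Th-positive against Th-negative interneurons recovered 71.2% of 2-fold and 95.5% of 4-fold changes, the genotype test in TH cells of nCX 10.5% and 71.2%, and the region test in TH cells 11.1% and 68.2%. For interneurons as a whole the genotype test in nCX recovered 0% and 49.3%, and the region test 3.03% and 56.1%. The changed genes were drawn from all those tested, so these rates were not measured for genes as low as Ddc. Results of some genes of these lists are not reported here. The methods give the mice used over all replicates but the labels do not tie cells to mice, so p-values measure the spread between libraries.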

Additional observations from a re-analysis of the deposited data

Results flagged for a closer look

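Th was also seen outside the named classes. Of 3238 cells in unnamed clusters, 61 (1.884%, 95% Wilson interval 1.469 to 2.412) had a Th UMI, at 15.8 CPM and a median of 1274 UMIs per cell, against 0.06% of oligodendrocytes. Cluster 5, whose cells had a median of 1523 UMIs, held 40 of them at 21.1 CPM. Cluster 26, led by Lhx8, Slc18a3 and Isl1, held 12 of its 303 cells with Th at 16.1 CPM, 13 with Slc18a2 at 8.63 CPM, 10 with Ddc at 5.49 CPM and 10 with Gch1 at 4.31 CPM, while Slc6a3 was at 0 UMIs.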

How the results depend on the processing

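Under the alternatives other than leaving out a library, Nr4a2 stayed called in Th-positive against Th-negative interneurons (3.26 to 4.42) and TH cells (0.94 to 2.37), and Bcl6 stayed called in interneurons (2.40 to 2.56) except after thinning (1.72). The number of genes called depended on the threshold, the test and the depth. In Th-positive against Th-negative interneurons it was 1925, with 2994 at an adjusted p of 0.05, 145 after thinning and 1431 to 1865 without a library, and the 3 members called became 1 after thinning and 2 to 3 without a library. In TH cells 949 became 1506 at 0.05, 598 with DESeq2, 23 after thinning, 188 in the cluster led by Th alone and 568 to 941 without a library (568 without Grin1-null nCX replicate 2, 616 without WT nCX replicate 3). The 2 members called there became 1 in that cluster, 1 after thinning and 1 to 2 without a library. In SST cells 28 became 1 with DESeq2, 46 at 0.05 and 81 at resolution 0.6. No fit was possible in PVALB and NGFC cells, or in SST cells where a setting left fewer than 2 libraries.

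Between regions, the replicate block moved the genes called in interneurons from 2 to 329 and the members called from 0 to 1 (Th). DESeq2 gave 247, no filter 176, 0.05 gave 91, doublets left out 1 and fits without a library 0 to 2. In TH cells 1 became 19 with the replicate block, 18 with DESeq2, 78 with no filter, 0 in the cluster led by Th alone and 0 to 6 without a library. Between genotypes in TH cells of nCX, 1 became 6 with the replicate block, 4 with DESeq2, 35 with no filter, 2 in the cluster led by Th alone (where the Grin1-null nCX group was 1 library) and 0 to 4 without a library. In TH cells of HPC 0 became 1 with DESeq2 and 19 with no filter, and in interneurons 0 became 1 and 25 in nCX and 1 and 22 in HPC. The replicate block changed no other call of a member.

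Signs that turned were mostly of values that were not called. Pcbd1 was -0.24 after thinning and Ddc 0.0156 in TH cells with DESeq2. Bcl6 in TH cells was 0.27 (genotype, nCX), 0.0232 (genotype, HPC) and -0.21 (region) in the cluster led by Th alone. Without a library it ranged from -2.04 to 0.46 (0.31 without Grin1-null nCX replicate 1, 0.46 without WT nCX replicate 2), from -0.90 to 0.42 (without WT HPC replicate 1) and from -0.52 to 0.74 (-0.13 without WT nCX replicate 3, -0.52 without WT HPC replicate 1). Nr4a2 between genotypes in HPC TH cells ran from -0.341 to 0.0037 without a library (0.0037 without Grin1-null HPC replicate 2). Th between genotypes in nCX ran from -1.34 to 0.767 in TH cells and from -1.68 to 1.20 in interneurons without a library, the lower values without Grin1-null nCX replicate 2. The thinned share with Th between genotypes ran from -2.90 to 5.27 points in nCX and from -0.468 to 0.0442 points in HPC without a library, and was 1.55 points in HPC without thinning. Co-detection without thinning was 58.16 points for Nr4a2 and 38.42 for Bcl6, now past an adjusted p of 0.05, and 0.31 for Ddc, 1.19 for Gch1 and -0.0652 for Slc6a3. With 2 Th UMIs as the limit it was -0.0571 for Slc18a2 and 0 for Slc6a3, and without a library it was -0.0146 to 0.32 for Slc6a3. The causes were not tested. Gch1 and Slc6a3 had too few UMIs to pass the filter on low counts.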
